A study of Mus musculus with 6 samples.

Results

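The 10 oligodendrocyte precursor genes Pdgfra, Cspg4, Gpr17, Olig1, Olig2, Sox10, Nkx2-2, Bcas1, Enpp6 and Lhfpl3 were taken by gene symbol from the 53465 genes of the deposited table. Each symbol had 1 row, and all 10 genes passed the expression filter. The tissue was right hippocampus, taken from male mice of the C57BL/6J strain. In the tMCAO group (3 libraries), a silicone-coated filament closed the right middle cerebral artery for 50 min and was then withdrawn. The comparison group was Sham (3 libraries), and no source used here gives the time from occlusion to dissection. All animals were perfused with cold saline, and poly(A) RNA was sequenced.

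Oligodendrocyte precursor cells are dividing glial cells spread through grey and white matter of the adult brain. They respond to platelet-derived growth factor through its alpha receptor, carry the proteoglycan NG2, and are held in the lineage by the transcription factors Olig2, Sox10 and Nkx2-2. A cell that leaves the precursor state passes through a stage marked by Gpr17 and Bcas1, then switches on myelin genes. In the adult hippocampus these cells supply new oligodendrocytes, and they are known to react to ischemic injury.

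The 10 genes gave different results. Gpr17, a G protein-coupled receptor of committed precursors, fell to 5.20 ± 1.85 FPKM in tMCAO, against 10.1 ± 0.346 FPKM in Sham (SD, n = 3 each). Enpp6, a choline-specific phosphodiesterase of newly formed oligodendrocytes, and Cspg4, which encodes NG2, also fell. Pdgfra, the growth factor receptor that defines the precursor, stood at 7.11 ± 0.434 FPKM in tMCAO and 6.33 ± 0.545 FPKM in Sham, and Olig2 at 9.92 ± 2.26 FPKM in tMCAO and 10.2 ± 0.81 FPKM in Sham (SD, n = 3 each). In all, 3 of 10 genes passed limma's test (adjusted p below 0.05 over 17561 genes), all 3 lower in tMCAO, and none was higher. Of all tested genes, 7.28% were called lower and 8.93% higher. The median log2 difference of the 10 genes was -0.36, beside 3.06e-05 over all tested genes. The libraries of the groups did not overlap in 7 of the 10 genes, 6 lower and 1 higher in tMCAO, whereas 43.4% of all tested genes did not overlap (20.3% lower, 23.1% higher).

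**Figure D1:**
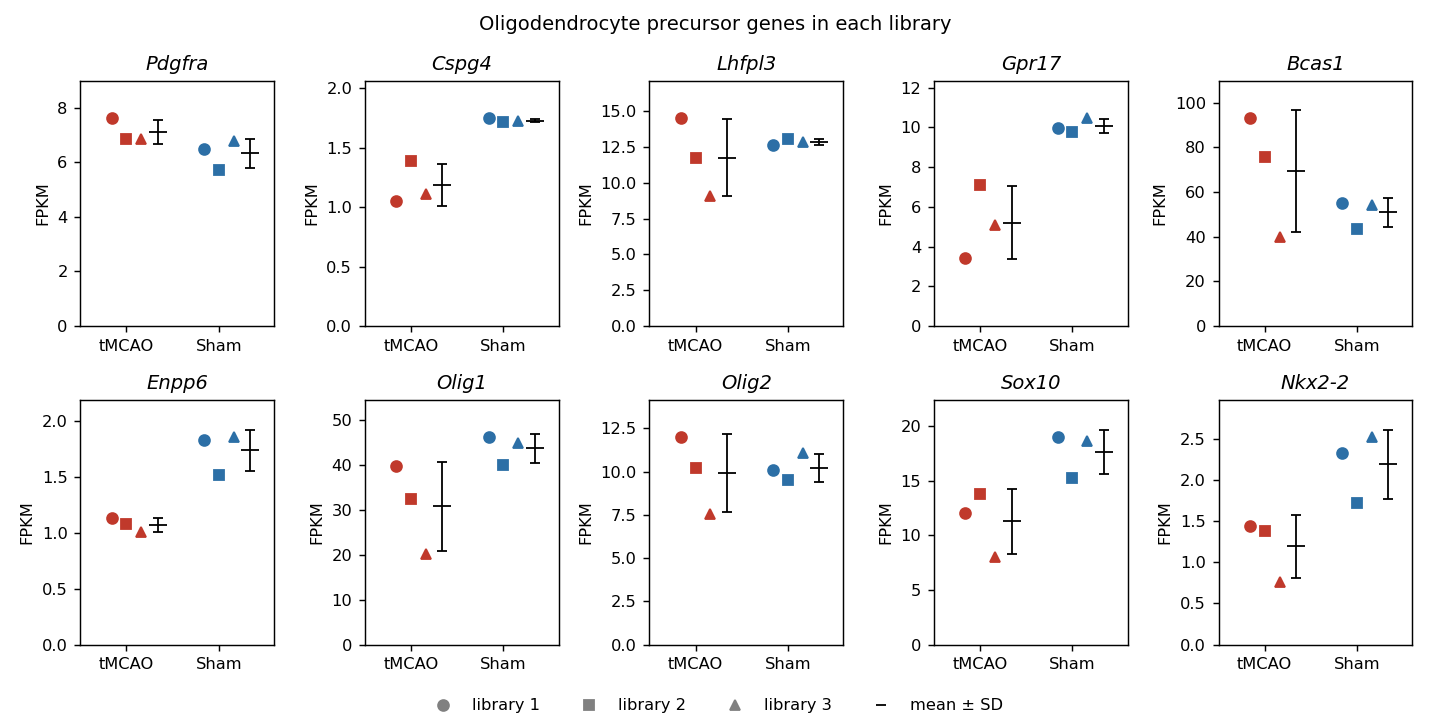
FPKM of each gene (y axis, starting at 0) in 3 tMCAO and 3 Sham libraries. Symbols are single libraries, and black marks are the mean ± SD (n = 3). Gpr17, Enpp6, Cspg4, Sox10, Nkx2-2 and Olig1 were lower in every tMCAO library than in every Sham library, while Bcas1, Lhfpl3 and Olig2 overlapped.

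FPKM is the number of reads of a gene divided by its exon length and by the reads of the library, so levels of different genes can be set side by side. Differences are given as tMCAO minus Sham on the log2(FPKM + 1) scale, which understates the change of genes near 1 FPKM. Whether each library is a different animal is not in the labels, and the p-values therefore cover the variation among these 6 libraries only, which may be technical. Libraries held 57797190 to 66157969 reads assigned to genes in tMCAO and 39027684 to 46278429 in Sham. The fewest reads behind a value of these genes were 138, for Nkx2-2 in tMCAO 3, and the most were 20089, for Bcas1 in tMCAO 1. In bulk tissue, fewer cells of a type and less RNA per cell cannot be told apart. The 10 genes listed as hippocampal neuron markers were all detected in each library, at summed levels of 395 to 544 FPKM in tMCAO and 411 to 449 FPKM in Sham. Of these, Rbfox3, Slc17a7, Gad1 and Gad2 are not particular to the hippocampus. The highest sum was in tMCAO 3, where Slc17a7 alone was at 266 FPKM, and single markers were uneven. Fibcd1 was at 1.996 FPKM in tMCAO 3 and 2.93 FPKM in Sham 2, against 7.78 to 8.68 FPKM in the other libraries. Prox1 was at 1.75 FPKM in tMCAO 3 and 2.09 FPKM in Sham 2, against 5.82 to 6.43 FPKM in the others. Spink8 was also lowest in tMCAO 3 and Sham 2, whereas Wfs1, Rbfox3, Gad1 and Gad2 were highest there. Striatal neuron markers were also present and uneven. Their summed level was 534 FPKM in tMCAO 3 and 641 FPKM in Sham 2, while the other libraries lay between 77.8 and 156 FPKM. Choroid plexus markers, at 44.1 FPKM in tMCAO 3 and 64.8 FPKM in Sham 2, were between 400 and 843 FPKM in the other 4 libraries. Without these 2 libraries, 5 of 9 striatal and 2 of 8 choroid markers passed limma's test as lower in tMCAO, beside 5.09% of all tested genes. None of either passed with all libraries (0 striatal and 1 choroid marker at an unadjusted p below 0.05). With all libraries, 7.28% of all tested genes were called lower.

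The promoters of 4 of the genes are shown because 2 of these genes fell (Enpp6 and Cspg4) and the other 2, Pdgfra and Olig2, did not pass the test. The sequences are RefSeq's for GRCm38.p6, from 250 bases before to 50 bases after the annotated start, 5′ to 3′ on the gene's strand, and 6 of the 10 genes had an entry. Enpp6 is at chr8:46986637-46986936, Cspg4 at chr9:56864854-56865153, Pdgfra at chr5:75152001-75152300 and Olig2 at chr16:91225300-91225599, all on the plus strand. Capitals mark the hexamers CAGCTG and CAGATG, E-boxes of the kind bound by Olig proteins, and ACAAAG and AACAAT, of the kind bound by SOX proteins, on either strand.
Enpp6: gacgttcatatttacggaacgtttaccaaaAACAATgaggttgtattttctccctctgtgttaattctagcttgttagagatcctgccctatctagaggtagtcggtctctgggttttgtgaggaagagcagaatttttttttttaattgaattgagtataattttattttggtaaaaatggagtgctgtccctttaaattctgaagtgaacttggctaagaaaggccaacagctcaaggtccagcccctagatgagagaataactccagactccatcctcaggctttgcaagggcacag
Cspg4: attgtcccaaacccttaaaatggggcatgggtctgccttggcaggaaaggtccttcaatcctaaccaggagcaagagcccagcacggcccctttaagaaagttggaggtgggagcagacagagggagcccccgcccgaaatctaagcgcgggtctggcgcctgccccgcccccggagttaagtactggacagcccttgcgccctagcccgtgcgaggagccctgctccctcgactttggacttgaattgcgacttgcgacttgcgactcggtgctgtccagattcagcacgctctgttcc
Pdgfra: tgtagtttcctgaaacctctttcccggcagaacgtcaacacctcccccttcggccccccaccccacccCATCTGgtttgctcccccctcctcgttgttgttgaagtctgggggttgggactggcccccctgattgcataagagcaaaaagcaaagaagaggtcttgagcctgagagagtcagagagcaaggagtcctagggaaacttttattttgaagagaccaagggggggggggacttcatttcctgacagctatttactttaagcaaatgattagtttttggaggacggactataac
Olig2: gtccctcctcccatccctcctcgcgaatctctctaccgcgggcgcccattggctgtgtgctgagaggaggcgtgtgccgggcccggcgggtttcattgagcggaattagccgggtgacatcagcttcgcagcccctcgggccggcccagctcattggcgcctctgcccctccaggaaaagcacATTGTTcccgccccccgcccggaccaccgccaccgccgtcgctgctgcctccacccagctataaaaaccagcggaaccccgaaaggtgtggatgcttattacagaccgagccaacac
Enpp6 held AACAAT once, at positions -220 to -215 from the start, and Olig2 held its reverse complement ATTGTT at -67 to -62. Pdgfra held CATCTG, the reverse complement of CAGATG, at -182 to -177. The Cspg4 window held none of these hexamers. No motifs overlapped in these windows. Among 32851 promoters of the same length, 10.7% held AACAAT and 17.2% held CAGATG on either strand, 30.6% held at least 1 of the E-box hexamers and 27.0% held at least 1 of the SOX hexamers. The matches are descriptions of the letters and not sites of binding. The promoters differed in base composition. G and C made up 40.3% of the Enpp6 window, 60% of Cspg4, 51% of Pdgfra and 65% of Olig2, beside a median of 52.7% over all promoters.

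Of the genes for surface proteins of the precursor cell, Cspg4 fell, and Pdgfra and Lhfpl3 did not pass. Gene positions are those of GENCODE on GRCm38 (mm10). Pdgfra (ENSMUSG00000029231, chromosome 5, 75152292 to 75198215, plus strand) was at 7.62, 6.88 and 6.85 FPKM in tMCAO 1, 2 and 3, against 6.48, 5.73 and 6.79 FPKM in Sham 1, 2 and 3. Each tMCAO library was above each Sham library, narrowly so for tMCAO 3 and Sham 3. The log2 difference was 0.15 (SE 0.09, 95% interval -0.06 to 0.35, limma adjusted p = 0.26). It did not pass under any of the 18 alternative settings, where it ranged from 0.08 to 0.19. Antisense genes and a microRNA gene share 6.5% of its exon length.

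Cspg4 (ENSMUSG00000032911, chromosome 9, 56865033 to 56899870, plus strand) encodes NG2, a transmembrane proteoglycan that pericytes also carry. It was at 1.05, 1.39 and 1.11 FPKM in the tMCAO libraries, against 1.75, 1.72 and 1.72 FPKM in the Sham libraries. The groups did not overlap, and the Sham libraries were nearly equal. Mean FPKM fell by 31.4%, with a log2 difference of -0.32 (SE 0.09, limma adjusted p = 0.0497), which is at the edge of the threshold. The call was lost with a pseudocount of 0.1 (limma adjusted p = 0.054), with no filter (0.059), with quantile normalization (0.057), in the table of all genes (0.054), without tMCAO 1 (0.0999), without tMCAO 3 (0.072) and without Sham 2 and tMCAO 3 (0.13). In the same libraries 7.28% of all tested genes were called lower. Of 11 pericyte and smooth muscle markers, 2 fell, none rose and 9 did not pass. Their summed level was 48.1 to 58 FPKM in tMCAO and 65.5 to 69.4 FPKM in Sham. Rgs5, a regulator of G protein signalling in pericytes, was at 12.8 ± 0.956 FPKM in tMCAO and 19.4 ± 0.687 FPKM in Sham (limma adjusted p = 0.011), and Anpep, an aminopeptidase of pericytes, at 0.711 ± 0.151 FPKM in tMCAO and 1.37 ± 0.119 FPKM in Sham (limma adjusted p = 0.025, SD, n = 3 each). No pericyte marker passed without Sham 1 or Sham 3, 1 passed as lower without Sham 2, without tMCAO 1, and without both Sham 2 and tMCAO 3, and without tMCAO 3, 1 was higher and 2 were lower (limma). The part of these cells in the Cspg4 result was not tested.

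Lhfpl3 (ENSMUSG00000106379, chromosome 5, 22746059 to 23275597, plus strand), a tetraspan membrane protein enriched in precursors, overlapped between the groups. It was at 14.5, 11.7 and 9.08 FPKM in tMCAO and 12.6, 13.1 and 12.8 FPKM in Sham. The tMCAO libraries lay on both sides of a narrow Sham range, and the log2 difference was -0.14 (SE 0.15, 95% interval -0.49 to 0.21, limma adjusted p = 0.53). It was 0.02 without tMCAO 3 and 0.03 without Sham 2 and tMCAO 3. The antisense gene A930003O13Rik shares 17.6% of the exon length of Lhfpl3, and reads of the strands cannot be told apart because no source used here gives the strand setting.

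Of the genes of the step from precursor to new oligodendrocyte, Gpr17 and Enpp6 fell and Bcas1 did not pass. Gpr17 (ENSMUSG00000052229) is switched on as precursors commit and off again before myelination. It was at 3.42, 7.11 and 5.08 FPKM in tMCAO 1, 2 and 3, against 9.99, 9.77 and 10.5 FPKM in Sham 1, 2 and 3. All tMCAO libraries were lower, and the tMCAO libraries differed among themselves far more than the Sham libraries. Mean FPKM fell by 48.4%, with a log2 difference of -0.88 (SE 0.20, 95% interval -1.36 to -0.40, limma adjusted p = 0.033). The call was lost without Sham 2 and tMCAO 3 (limma adjusted p = 0.087, log2 difference -0.91). Gpr17 shares 3.6% of its exon length with Lims2 on the opposite strand. Lims2, an adaptor of integrin signalling that was listed among committed-stage genes, also fell, to 3.58 ± 0.355 FPKM in tMCAO, against 6.59 ± 0.366 FPKM in Sham (SD, n = 3 each, limma adjusted p = 0.0099). The part of shared reads in these results was not tested.

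Enpp6 (ENSMUSG00000038173, chromosome 8, 46986887 to 47096762, plus strand) is switched on in oligodendrocytes that are just forming. It was at 1.13, 1.07 and 1 FPKM in tMCAO and 1.83, 1.52 and 1.85 FPKM in Sham. Every tMCAO library was lower, and their range was the narrower one. The mean fell by 38.3%, with a log2 difference of -0.40 (SE 0.09, limma adjusted p = 0.029). The call held without Sham 2 and tMCAO 3 (limma adjusted p = 0.046) and was lost without tMCAO 1 (0.052) or tMCAO 2 (0.055). No exon base of Enpp6 is shared with another gene.

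Bcas1 (ENSMUSG00000013523, chromosome 2, 170346991 to 170427845, minus strand) marks newly forming oligodendrocytes and is also carried by mature ones. It had the highest level of the 10 genes, at 93, 75.6 and 39.7 FPKM in tMCAO 1, 2 and 3, against 55, 43.5 and 54 FPKM in Sham 1, 2 and 3. tMCAO 1 and 2 were above and tMCAO 3 was below all Sham libraries, so the groups overlapped. The log2 difference was 0.37 (SE 0.29, 95% interval -0.33 to 1.06, limma adjusted p = 0.40). Without tMCAO 3 it was 0.72 and passed as higher (limma adjusted p = 0.02, with 12.4% of all tested genes called higher in that fit). Without Sham 2 and tMCAO 3 it was 0.61 and also passed (limma adjusted p = 0.034, with 6.99% of genes called higher). Without tMCAO 1 it was 0.12 (limma adjusted p = 0.80), and with the striatal covariate 0.16 (0.54). Antisense genes share 12.6% of its exon length.

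Of the transcription factors, Olig1, Sox10 and Nkx2-2 were lower in every tMCAO library and missed the threshold, while Olig2 overlapped. Olig1 and Olig2 are basic helix-loop-helix factors that lie next to each other on chromosome 16. Olig1 (ENSMUSG00000046160, 91269772 to 91271933, plus strand) was at 39.8, 32.5 and 20.2 FPKM in tMCAO and 46.3, 40.1 and 44.9 FPKM in Sham. All tMCAO libraries were lower, tMCAO 1 only just below Sham 2, and tMCAO 3 was far below the rest. The log2 difference was -0.54 (SE 0.22, 95% interval -1.07 to -0.01, limma adjusted p = 0.13). It was -0.27 without tMCAO 3 (limma adjusted p = 0.11) and -0.33 when Sham 2 was left out as well (0.096). It passed as lower with library weights (limma adjusted p = 0.032) and with the striatal covariate (0.029). Gm15966 on the opposite strand shares 7.3% of its exon length.

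Olig2 (ENSMUSG00000039830, 91225457 to 91228677, plus strand), which specifies the lineage, was at 12, 10.2 and 7.52 FPKM in tMCAO and 10.1, 9.49 and 11.1 FPKM in Sham. The libraries were mixed, with the highest and the lowest value both in tMCAO. Its log2 difference was -0.06 (SE 0.15, 95% interval -0.42 to 0.31, limma adjusted p = 0.81). It was 0.11 without tMCAO 3 and 0.06 without Sham 2 and tMCAO 3.

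Sox10 (ENSMUSG00000033006, chromosome 15, 79154908 to 79165240, minus strand), which acts in precursors and later drives myelin genes, was at 12, 13.8 and 8.03 FPKM in tMCAO, against 19, 15.3 and 18.6 FPKM in Sham. All tMCAO libraries were lower. The log2 difference was -0.63 (SE 0.19, 95% interval -1.07 to -0.19, limma adjusted p = 0.061). It passed as lower without Sham 2 and tMCAO 3 (limma adjusted p = 0.031), without tMCAO 3 (0.047), with library weights (0.032) and with a covariate for the striatal marker level (0.0074).

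Nkx2-2 (ENSMUSG00000027434, chromosome 2, 147177546 to 147194243, minus strand), a homeodomain factor that promotes differentiation, was at 1.45, 1.39 and 0.756 FPKM in tMCAO and 2.33, 1.72 and 2.53 FPKM in Sham. The groups did not overlap. The log2 difference was -0.55 (SE 0.16, 95% interval -0.93 to -0.16, limma adjusted p = 0.061). It passed as lower without Sham 2 and tMCAO 3 (limma adjusted p = 0.038), in the fit that weights libraries (0.022) and in the fit with the striatal covariate (0.0092). Nkx2-2os on the opposite strand shares 9.7% of its exon length.

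**Figure D2:**
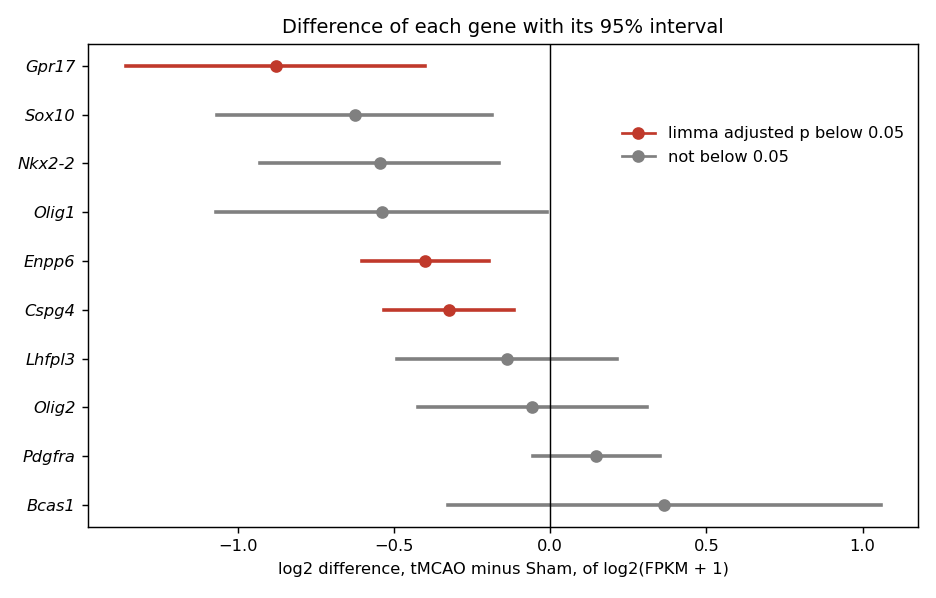
Difference between tMCAO and Sham of each gene on the log2(FPKM + 1) scale (x axis), with dots for the estimate and lines for the 95% interval of limma's fit (n = 3 each). Red marks the 3 genes with adjusted p below 0.05, and the intervals of Lhfpl3, Olig2, Pdgfra and Bcas1 include 0.

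The exact two-sided permutation test over 20 assignments gave p = 0.10 for each of the 7 genes whose groups did not overlap, the smallest p that 3 libraries against 3 allow. It gave 0.40 for Bcas1, 0.70 for Lhfpl3 and 0.90 for Olig2. In the authors' deposited table, 5 of the 10 genes had an adjusted p below 0.05, all lower in tMCAO, and 9.41% of its 22647 genes were called so. The log2 fold changes there are Sham over tMCAO. The authors' deposited table gives 0.95 for Gpr17 (adjusted p 0.00047), 0.70 for Enpp6 (0.00016), 0.54 for Cspg4 (0.0028), 0.65 for Sox10 (0.011) and 0.88 for Nkx2-2 (0.012). Olig1 had 0.50 there (authors' deposited table, adjusted p 0.083).

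The calls depended on each Sham library. Without Sham 1, Sham 2 or Sham 3, limma called 0 of 10 genes in each fit, with 5 of 10 at an unadjusted p below 0.05 in each. The count over all genes was 124, 419 and 75 in these fits, against 2847 with all libraries. The adjusted p of Gpr17 ranged from 0.091 to 0.12 in these 3 limma fits, that of Enpp6 from 0.061 to 0.12 and that of Cspg4 from 0.13 to 0.16. Their log2 differences stayed between -0.90 and -0.85 for Gpr17, -0.46 and -0.37 for Enpp6, and -0.33 and -0.32 for Cspg4. Without tMCAO 1, limma called Gpr17 only (adjusted p = 0.0435), with 3.92% of all tested genes called lower. Without tMCAO 2 it called Gpr17 and Cspg4, with 5.75% of all tested genes called lower. Without tMCAO 3 it called Gpr17, Enpp6 and Sox10 lower (9.81% of all tested genes were called lower there) and Bcas1 higher.

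Within its own group, each library high in striatal markers was low in many of these genes. In tMCAO 3, 9 of the 10 genes were below their mean over the 6 libraries, by up to 0.80 on the log2(FPKM + 1) scale for Olig1, and Pdgfra was 0.03 above it. These deviations include the difference between the groups. tMCAO 2, low in striatal markers, was above that mean only for Pdgfra, Olig2 and Bcas1. Gpr17 and Cspg4 were lowest in tMCAO 1. Mature oligodendrocyte genes had a mean deviation of -0.59 in tMCAO 3, against 0.14 and -0.04 in tMCAO 1 and 2 and -0.01 to 0.26 in Sham. Their summed level was 982 FPKM in tMCAO 3 and 1825 FPKM in tMCAO 1, with 1110 FPKM in Sham 2 and 1365 FPKM in Sham 1. Within the Sham group, Sham 2 had the lowest value of each of the 10 genes except Lhfpl3. Against the mean over the 6 libraries, however, Sham 2 was below only for Pdgfra, Olig2 and Bcas1. It was above that mean for the other genes, by 0.40 for Gpr17 and 0.16 for Cspg4. With the striatal marker level as a covariate, 6 of 10 genes passed limma's test as lower (Gpr17, Enpp6, Cspg4, Sox10, Nkx2-2 and Olig1). In that fit 10.7% of all tested genes were called lower. So were 5 of 8 choroid plexus markers, 9 of 18 mature oligodendrocyte genes and 3 of 10 hippocampal neuron markers. With all libraries and no covariate these counts were 0, 4 and 0. In both fits 1 mature gene and 1 hippocampal marker were called higher. Without Sham 2 and tMCAO 3, Enpp6, Sox10 and Nkx2-2 passed as lower (5.09% of all tested genes) and Bcas1 as higher. The part of mature oligodendrocyte content in these differences was not tested.

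**Figure D3:**
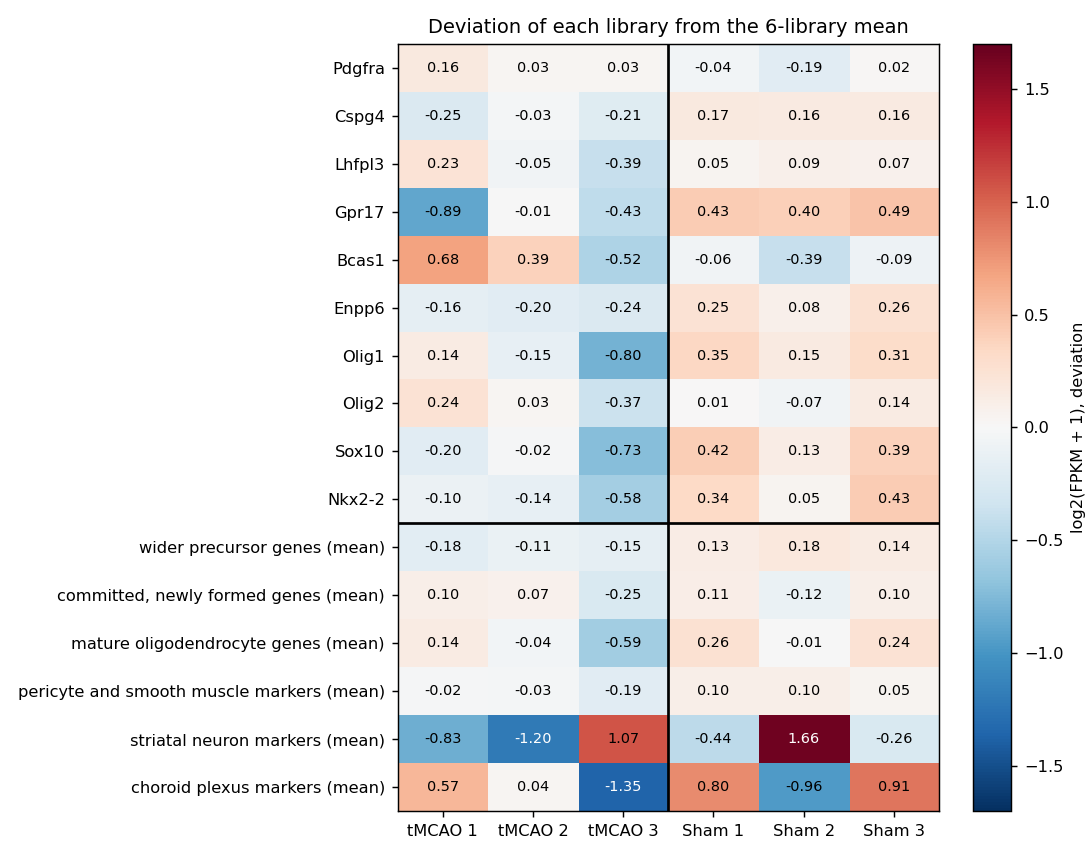
Deviation of each library (columns, 3 tMCAO left of 3 Sham) from the mean over the 6 libraries, on the log2(FPKM + 1) scale, for the 10 genes (upper rows) and the means of 6 gene lists (lower rows). In tMCAO 3 mature oligodendrocyte genes (-0.59) and choroid plexus markers (-1.35) were low and striatal markers (1.07) high, and Sham 2 shared the low choroid (-0.96) and high striatal level (1.66).

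Ratios between the genes within a library do not depend on the library's scaling. Of 45 pairs, 26 had FPKM ratios whose groups did not overlap, beside 41.3% of all pairs of tested genes above 0 in every library. The 45 pairs share their 10 genes, and the pairs described were chosen after their values were seen. Gpr17 relative to Olig2 was 0.285, 0.695 and 0.675 in tMCAO 1, 2 and 3, against 0.992, 1.03 and 0.942 in Sham 1, 2 and 3. Pdgfra relative to Gpr17 was 2.23, 0.967 and 1.35 in tMCAO and 0.649, 0.586 and 0.65 in Sham. The neighbours Olig1 and Olig2 had a ratio of 3.32, 3.18 and 2.69 in tMCAO, against 4.6, 4.22 and 4.05 in Sham. None of these ratios overlapped between the groups. Without overlap the exact permutation p is always the smallest (two-sided, 0.10), so it adds nothing here. The ratio of Gpr17 to Sox10 did overlap, at 0.284, 0.516 and 0.632 in tMCAO and 0.525, 0.639 and 0.562 in Sham (exact permutation p = 0.40).

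**Figure D4:**
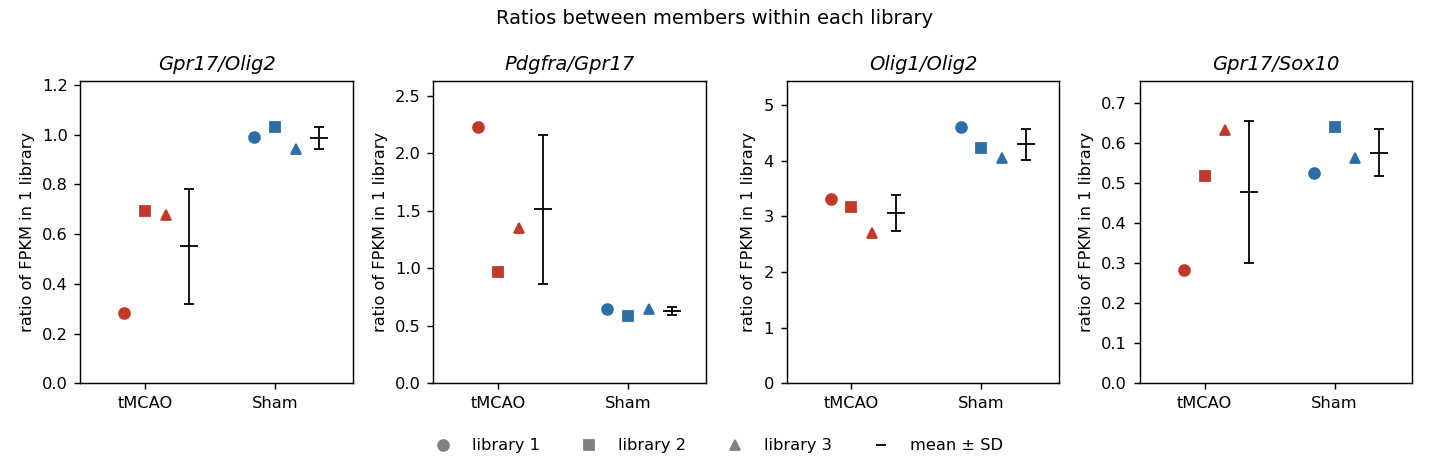
Ratio of the FPKM of 2 genes within each library (y axis, starting at 0) for 4 pairs, in 3 tMCAO and 3 Sham libraries, with the mean ± SD in black. Gpr17/Olig2 and Olig1/Olig2 were lower and Pdgfra/Gpr17 higher in every tMCAO library, while Gpr17/Sox10 overlapped.

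The order of levels differed in a few places. In tMCAO, Bcas1 (69.4 ± 27.2 FPKM) and Olig1 (30.8 ± 9.89) came first, then Lhfpl3, Sox10, Olig2, Pdgfra and Gpr17, and last Nkx2-2, Cspg4 and Enpp6 near 1 FPKM. There Bcas1 and Olig1 overlapped, and so did each pair of neighbours from Lhfpl3 to Gpr17 and from Nkx2-2 to Enpp6. In Sham, Bcas1 (50.8 ± 6.35) and Olig1 (43.8 ± 3.29) again overlapped at the top (SD, n = 3 each). Sox10, Lhfpl3 and then Olig2 followed without overlap, Olig2 overlapped Gpr17, and Gpr17 stood above Pdgfra with no overlap. Nkx2-2, Enpp6 and Cspg4 overlapped at the low end.

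Some profiles over the 6 libraries ran closely together. By Pearson correlation of log2(FPKM + 1), Cspg4 and Gpr17 were each other's closest member (r = 0.98), as were Sox10 and Nkx2-2 (0.97) and Olig2 and Lhfpl3 (0.91). Olig1 (0.93) and Enpp6 (0.93) were closest to Nkx2-2, Bcas1 to Olig2 (0.80) and Pdgfra to Bcas1 (0.70). Predicted models (names starting with Gm or ending in Rik) were left out of the next search. The 5 genes outside the lists closest to the mean z-score of the 10 genes were Tmem35a, Rdx, Spats2l, Folh1 and Doc2b. Their r, from 0.993 to 0.996, was picked as the highest among the tested genes searched. These values describe 6 libraries that share the group difference and the uneven striatal content, and none of these 5 genes passed limma's test (unadjusted p from 0.052 to 0.43).

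Other genes of the precursor stage moved one way where they passed. Of 17 wider precursor genes, 7 fell, none rose and 10 did not pass limma's test, with a median log2 difference of -0.26. Their groups did not overlap in 9 genes, all lower in tMCAO. Of all tested genes, 7.28% were called lower, and 20.3% did not overlap and were lower. Xylt1, which starts the sugar chains of proteoglycans, fell to 5.91 ± 0.176 FPKM in tMCAO, against 7.80 ± 0.301 FPKM in Sham (limma adjusted p = 0.023). Rlbp1, a retinoid-binding protein, was at 2.12 ± 0.628 FPKM in tMCAO and 4.20 ± 0.642 FPKM in Sham (limma adjusted p = 0.03). Cacng4, an auxiliary subunit of AMPA receptors, was at 8.91 ± 1.15 FPKM in tMCAO and 15.4 ± 3.91 FPKM in Sham (limma adjusted p = 0.038). Sox6, which keeps precursors undifferentiated, was at 1.17 ± 0.153 FPKM in tMCAO and 1.77 ± 0.0902 FPKM in Sham (limma adjusted p = 0.038, SD, n = 3 each). Astrocytes or neurons also express several of these genes. The count was 1 without Sham 2 and tMCAO 3 (5.09% of all tested genes called lower there) and 1 without tMCAO 1 (3.92%). It was 0 without Sham 1, 2 or 3, where 124, 419 and 75 of all genes were called (limma, with the same threshold).

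Later stages gave mixed results, beside 8.93% of all tested genes called higher and 7.28% called lower. Of 12 committed and newly formed oligodendrocyte genes, Lims2 alone passed limma's test, lower in tMCAO, and the median log2 difference was -0.05. No gene of the list passed without Sham 1 or Sham 3 (1 at an unadjusted p below 0.05 in each), and without tMCAO 3, 1 was higher and 1 lower. The median was 0.11 without tMCAO 3, 0.05 without Sham 2 and tMCAO 3, 0.01 without Sham 1 and 0.04 without Sham 3. Among 18 mature oligodendrocyte genes, 4 fell, 1 rose and 13 did not pass (median log2 difference -0.34). This median was -0.09 without tMCAO 3, -0.17 without Sham 2 and tMCAO 3, and -0.52 without tMCAO 1. Ugt8a, which makes the myelin lipid galactosylceramide, fell to 4.15 ± 0.862 FPKM in tMCAO, against 12.5 ± 0.866 FPKM in Sham (limma adjusted p = 0.0053). Ppp1r14a, a phosphatase inhibitor, was at 3.13 ± 0.829 FPKM in tMCAO and 9.03 ± 1.25 FPKM in Sham (limma adjusted p = 0.01). Apod, a lipid carrier, rose to 196 ± 39.4 FPKM in tMCAO, against 83.7 ± 12 FPKM in Sham (limma adjusted p = 0.013, SD, n = 3 each). Without Sham 1, and likewise without Sham 3, 1 mature gene passed.

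Of 17 regulators of the lineage, 4 fell, 3 rose and 10 did not pass limma's test. Of all tested genes, 7.28% were called lower and 8.93% higher. Without Sham 2 and tMCAO 3, 4 regulators were higher and 0 lower, beside 6.99% and 5.09% of all tested genes. With no filter 3 were higher and 1 lower. Sox8, a relative of Sox10 in the same SOX group, fell to 8.98 ± 0.713 FPKM in tMCAO, against 12.6 ± 0.613 FPKM in Sham (limma adjusted p = 0.019). Sox9, a member of that group which astrocytes express, rose to 9.52 ± 1.49 FPKM in tMCAO, against 5.87 ± 0.33 FPKM in Sham (limma adjusted p = 0.021). Id2, an inhibitor of basic helix-loop-helix factors, was at 48.5 ± 4.21 FPKM in tMCAO and 34.6 ± 2.62 FPKM in Sham (limma adjusted p = 0.022), and Zfp24, a zinc finger factor needed for myelination, at 10.96 ± 0.234 FPKM in tMCAO and 7.63 ± 0.175 FPKM in Sham (limma adjusted p = 0.011, SD, n = 3 each). No regulator passed without Sham 1 or Sham 3, 1 did without Sham 2, and 3 did without tMCAO 1.

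Signals that act on precursors went both ways, with 3 of 19 tested genes higher, 3 lower and 13 not passing. Over all tested genes, 8.93% were called higher and 7.28% lower. None of the 4 platelet-derived growth factor genes passed. Pdgfa, whose product binds the alpha receptor, was at 9.85 ± 2.01 FPKM in tMCAO and 9.89 ± 0.65 FPKM in Sham (limma adjusted p = 0.92), and was named after its values were seen. Cxcl12, a chemokine that guides precursors, fell to 2.39 ± 0.419 FPKM in tMCAO, against 6.90 ± 0.432 FPKM in Sham (limma adjusted p = 0.0053). Lingo1, an inhibitor of oligodendrocyte differentiation, was at 49.9 ± 4.91 FPKM in tMCAO and 65.9 ± 1.11 FPKM in Sham (limma adjusted p = 0.029). Lif, a cytokine that favours oligodendrocyte survival, rose to 1.82 ± 0.941 FPKM in tMCAO, against 0.12 ± 0.0653 FPKM in Sham (limma adjusted p = 0.021), and Fgf2, a mitogen of precursors, to 3.32 ± 0.712 FPKM in tMCAO, against 1.75 ± 0.189 FPKM in Sham (limma adjusted p = 0.027, SD, n = 3 each). The Sham level of Lif lay below the expression filter, which was set on the mean over all libraries. Lif was therefore tested only because of its tMCAO level, and it is 1 of the 3 signals counted as higher. With Sham 1, Sham 2, Sham 3 or tMCAO 1 left out in turn, 1 signal passed each time, and 3 did without tMCAO 2.

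Of 12 cell cycle genes, 6 lay above the filter. With 8.93% of all tested genes called higher, 2 of these 6 rose. They were Pcna, the replication clamp, at 15.7 ± 0.611 FPKM in tMCAO and 12.1 ± 0.501 FPKM in Sham (limma adjusted p = 0.022), and Ccna2, cyclin A2, at 2.56 ± 0.235 FPKM in tMCAO and 1.72 ± 0.195 FPKM in Sham (limma adjusted p = 0.038, SD, n = 3 each). The other 4 tested genes, Mcm2, Mcm3, Ccnd1 and Ccnd2, did not pass, and their groups overlapped. Mki67, Top2a, Ccnb1, Cdk1, Aurkb and Birc5 lay below the filter of 0.5 FPKM, were not tested and also overlapped. Mki67 was at 0.33 FPKM in tMCAO and 0.28 FPKM in Sham. These other members were named after their values were seen. With a single Sham library left out, 0 cell cycle genes passed limma's test and 2 of the 6 tested genes had an unadjusted p below 0.05 in each fit. Without tMCAO 1, without tMCAO 3, and without both Sham 2 and tMCAO 3, 1 passed as higher. Which cells these transcripts came from cannot be told apart in bulk tissue. None of 6 tested fibroblast markers passed limma's test (0 at an unadjusted p below 0.05). With the striatal covariate 1 passed as lower, and without Sham 2 and tMCAO 3 likewise 1. Fibroblasts also express Pdgfra, and the summed level of their 7 markers was 10.1 to 19 FPKM in tMCAO and 10.5 to 17.9 FPKM in Sham. The 2 with the highest level were Dcn, a matrix proteoglycan, at 5.39 ± 2.98 FPKM in tMCAO and 3.97 ± 1.98 FPKM in Sham, and Slc13a4, a sulfate transporter, at 2.64 ± 0.642 FPKM in tMCAO and 3.83 ± 1.07 FPKM in Sham (SD, n = 3 each).

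**Figure D5:**
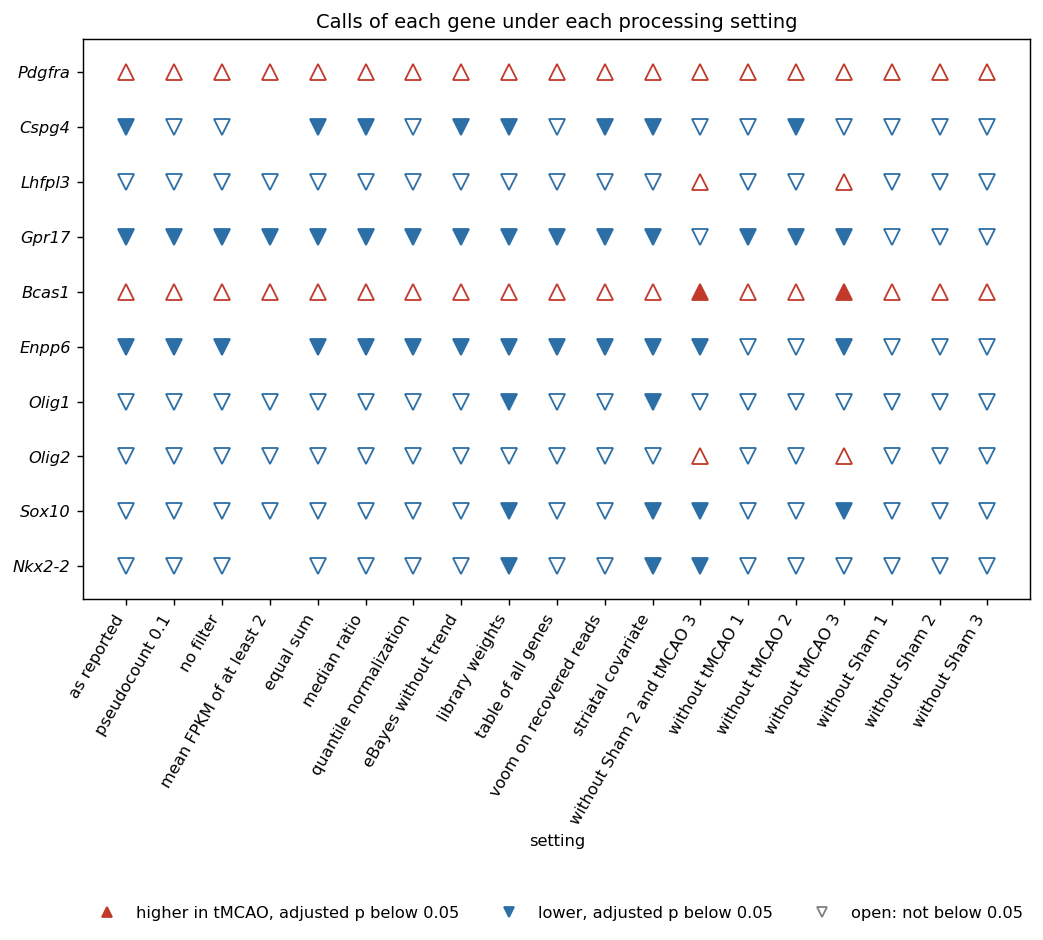
Direction and call of each gene (rows) under the reported and the alternative settings (columns). Triangles point up for higher and down for lower in tMCAO and are filled where limma's adjusted p was below 0.05. Gpr17 was called in 14 and Enpp6 in 12 of the alternatives, none of the 10 genes was called where a single Sham library was left out, and Pdgfra, Olig2 and Lhfpl3 were called in none.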

How the data were processed

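Poly(A) RNA was measured in 3 tMCAO and 3 Sham libraries of right hippocampus. The authors' deposited values are FPKM, scaled by gene length and library; the submitters' processing notes name mm10 as the build. No source used here gives the aligner, the counter or the strand setting. The authors also deposited a log2 fold change (Sham over tMCAO), with its p-value, raw and adjusted; the test is not given. Titles identify the Sham columns. Those of tMCAO carry the group and a number, by which they are called here.

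The main test was limma 3.58.1 (R 4.3.3; lmFit, eBayes with trend, two-sided, Benjamini-Hochberg) on log2(FPKM + 1) over the 17561 of 22647 compared genes with mean FPKM of at least 0.5. An exact permutation test was run for each of the 10 genes. Whole reads were recovered from the FPKM steps with GENCODE release M21 exon lengths (20835 of the 22647 compared genes, 92.0%, whole at that length within 1e-06 or, for large counts, 1e-09 of the count; for the others the shortest length that made all values whole was taken) and served for depth and for voom. They may be single reads or read pairs. The test was run on simulated data with independent normal noise and the same spread in both groups. Unequal spread between the groups and uneven striatal content were not simulated.

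The genes and the 14 other lists were chosen with earlier results of these data known. Named are all 10 genes, up to 4 called members of each lineage list with the smallest adjusted p or, where none passed, the 2 with the highest FPKM, and the genes closest in profile; exceptions are marked, and 1 gene that the rule names is not reported here. Lists are described by counts and medians without a set test. Marker lists of other cells passed as follows (higher and lower of tested): astrocytes 2 and 1 of 10, microglia 1 and 6 of 10, endothelium 2 and 3 of 10, hippocampal neurons 1 and 0 of 10, striatal neurons 0 and 0 of 9, and choroid plexus 0 and 0 of 8 (0 and 1 at an unadjusted limma p below 0.05 in the last 2). The shares over all tested genes were 8.93% higher and 7.28% lower. Without Sham 2 and tMCAO 3, astrocytes had 2 calls, as higher, and hippocampal neurons 0 (2 at an unadjusted limma p below 0.05). In that fit 6.99% of all tested genes were called higher and 5.09% lower. The 18 alternatives were another pseudocount (0.1), other filters (none, mean FPKM of at least 2), 3 scalings, eBayes without trend, library weights, the table of all genes, voom, a striatal covariate and leaving out libraries.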

Additional observations from a re-analysis of the deposited data

How the results depend on the processing

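The direction was kept in all 18 alternatives for Pdgfra, Gpr17, Olig1, Sox10 and Bcas1 and in all 17 that tested them for Cspg4, Nkx2-2 and Enpp6. Olig2 turned to 0.063 and Lhfpl3 to 0.031 when Sham 2 and tMCAO 3 were both left out. With 1 library left out Olig2 ranged from -0.195 to 0.110 and Lhfpl3 from -0.291 to 0.020, positive only without tMCAO 3. The number of changed precursor genes, 3 as reported, was 1 at a mean FPKM of at least 2, where 7 were tested, and 6 with library weights (12.7% of all genes called lower there) and 6 with the striatal covariate. With 1 library left out it ranged from 0 to 4, and the count over all genes from 75 to 3896. Library weights gave 4913 changed genes. With libraries rescaled to an equal sum, the median log2 difference of all genes was -0.06 and the split over all genes was 1048 higher and 1584 lower, against 1569 and 1278. Wider precursor genes numbered 1 without Sham 2 and tMCAO 3 and 0 to 6 with 1 library left out. Committed genes numbered 0 to 2 with 1 library left out. Mature genes numbered 8 with library weights, 10 with the striatal covariate and 1 to 6 with 1 library left out. Regulators numbered 4 with no filter, 4 without Sham 2 and tMCAO 3, and 0 to 7 with 1 library left out. Signals numbered 1 to 7 and cell cycle genes 0 to 2 with 1 library left out, and cell cycle genes 1 with no filter and 1 without Sham 2 and tMCAO 3. Fits with a library left out hold fewer samples, and beyond that the cause was not tested. No paired analysis was possible because the sample titles share no replicate number between the groups and nothing in the labels gives the numbers 1 to 3 of the libraries, which are only names, a meaning that would tie a tMCAO to a Sham library. Depth limits Nkx2-2 most, with 138 to 333 reads per library.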
